A study of Mus musculus with 30 samples.

Results

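Of the 46113 genes with counts in each library, 33 belong to cholesterol metabolism and are described here. They were chosen by name: 19 genes of the synthesis route from acetoacetyl-CoA to cholesterol, 5 genes that control the SREBP transcription factors, 4 genes of sterol transport and storage, and 5 genes of the liver X receptors (LXRs) and the efflux they drive. All 33 had counts and passed the filter on low counts in every comparison.

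The 30 RNA libraries were made from 100 sorted bone marrow cells each, taken from C57BL/6 mice of 8 to 10 weeks. In the first set, haematopoietic stem cells (HSCs, CD150+ CD48- EPCR+ Lineage-) came from untreated mice (n = 4), and from mice given 5-fluorouracil (5-FU), a drug toxic to cycling cells, at day 6 (n = 4) and day 10 (n = 6). In the second set, HSCs of untreated mice were cultured for 1 day (n = 4) or left uncultured (n = 4). In the third set, CD48+ progenitors (HPCs, CD150+ CD48+ EPCR+ Lineage-, n = 4) and CD48- HSCs (n = 4) were both taken 10 days after 5-FU. The labels give neither the dose of 5-FU nor the culture medium, and do not say whether the libraries of a group came from separate mice, so the p-values measure the spread between these libraries.

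Cells build cholesterol from acetyl-CoA by way of mevalonate, farnesyl pyrophosphate, squalene and lanosterol. When sterol in the endoplasmic reticulum is low, SCAP escorts the SREBP factors to the Golgi, where they are cleaved, and the freed factor enters the nucleus and switches on the genes of synthesis. INSIG proteins hold SCAP back when sterol is plentiful, and oxysterols then activate the LXRs, which switch on the exporters ABCA1 and ABCG1. In mice that lack both exporters, haematopoietic stem and progenitor cells expand.

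The libraries held 5208722 to 12243208 exon reads. Values are CPM of exon reads, with 1 TMM scaling over all 30 libraries, so each is a share of a library's reads. Fewer cells with a transcript and less of it per cell cannot be told apart in such bulk libraries. The summed CPM of 12 HSC marker genes was 6478 to 7091 in untreated, 3823 to 3973 in day-6 and 3714 to 4883 in day-10 HSCs, 3329 to 3658 in cultured against 5835 to 6456 in uncultured HSCs, and 2748 to 3269 in HPCs against 4486 to 5275 in CD48- HSCs. In 6 libraries the transcripts of another cell type stood out, with a marker sum above 1000 CPM and over 3 times the median of the group's other libraries. These were day-6 replicate 1 (macrophage genes), day-10 replicate 1, uncultured replicates 1 and 3 and CD48- HSC replicate 3 (erythroid genes), and untreated replicate 3 (granulocyte genes). HPC replicate 3 fell just short of the rule and was not counted among them. Its macrophage sum was 2727 CPM, against a median of 916 CPM in the other HPC libraries. Some marker sums also differed between whole groups. The erythroid sum was 2423 to 6362 CPM in untreated, 318 to 445 CPM in day-6 and 333 to 1505 CPM in day-10 HSCs. In cultured against uncultured HSCs the granulocyte and mast cell sum was 10.2 to 15.9 against 82.1 to 595 CPM and the lymphoid sum 10.4 to 14.6 against 24.2 to 84.4 CPM. In HPCs against CD48- HSCs the lymphoid sum was 141 to 192 against 34.6 to 40.2 CPM and the megakaryocyte and platelet sum 189 to 235 against 721 to 1074 CPM. Only 5 of the 10 listed megakaryocyte and platelet markers had counts. Of these, Vwf (141.7 against 866.1 CPM) and Gp9 (10.1 against 16.8 CPM) were lower in HPCs by mean. Itga2b (55.96 against 29.4 CPM), Tubb1 (3.36 against 1.18 CPM) and Gp6 (0.42 against 0.09 CPM) were higher. The part of these shifts in the results was not tested. The share of gene reads in introns was 68.5% ± 0.76 (SD, n = 4) in untreated HSCs, 61.8% ± 0.80 (n = 4) at day 6 and 64.3% ± 1.57 (n = 6) at day 10, and 62.5% ± 0.17 in cultured against 70.4% ± 0.50 in uncultured HSCs, and 64.2% ± 1.37 in HPCs against 67.4% ± 1.35 in CD48- HSCs (n = 4 each).

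Culture changed the most of these genes. In edgeR's quasi-likelihood test with Benjamini-Hochberg adjustment over all genes (threshold 0.05), 25 of the 33 were higher and 4 lower after 1 day of culture, in a comparison where 67.6% of 12386 genes were called, 33.8% higher and 33.8% lower. A rise of at least 4-fold was called for 17 of the 33 genes and for 2.42% of all genes, and a fall of at least 4-fold for 1 of them and for 4.85% of all genes. At day 6 after 5-FU, 4 were higher and 7 lower, against 51.4% of 12886 genes called (25.7% higher and 25.7% lower). At day 10, 5 were higher and 4 lower, against 38.0% of genes called (19.9% higher and 18.1% lower). Between day 10 and day 6, 5 were higher and 4 lower at day 10 (30.6% of all genes called, 14.7% higher and 15.9% lower). In CD48+ HPCs, 4 were higher and 4 lower than in CD48- HSCs, where 26.5% of 12719 genes were called, 14% higher and 12.5% lower. In the 4 comparisons other than culture, the share of these genes called was thus under that of all genes. The counts of culture held with any single library left out (25 higher and 4 or 5 lower), but those of the other comparisons rested in part on single libraries. The count lower at day 10 was 0 without untreated replicate 4 or day-10 replicate 1, 1 without untreated replicate 2 or day-10 replicate 4, 2 without day-10 replicate 6, and 7 without untreated replicate 1 or day-10 replicate 3. The count higher at day 10 was 3 without untreated replicate 1 or 4 or day-10 replicate 1 or 4, and the count lower at day 6 was 11 without untreated replicate 1. For day 10 against day 6, 3 genes were higher and 2 lower without day-6 replicate 3, and 2 were lower without day-10 replicate 2. In HPCs 2 were higher without CD48- HSC replicate 1 or HPC replicate 1, 2 or 4. Without the 3 libraries of the 5-FU set that held transcripts of other cells (untreated replicate 3, day-6 replicate 1 and day-10 replicate 1), the 4 genes lower at day 10 (Lss, Sc5d, Srebf2 and Stard4) were no longer called, with adjusted p of 0.0628, 0.10, 0.0615 and 0.0699, nor were Npc2 (0.0646) and Nr1h3 (0.0596) among those higher.

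**Figure D1:**
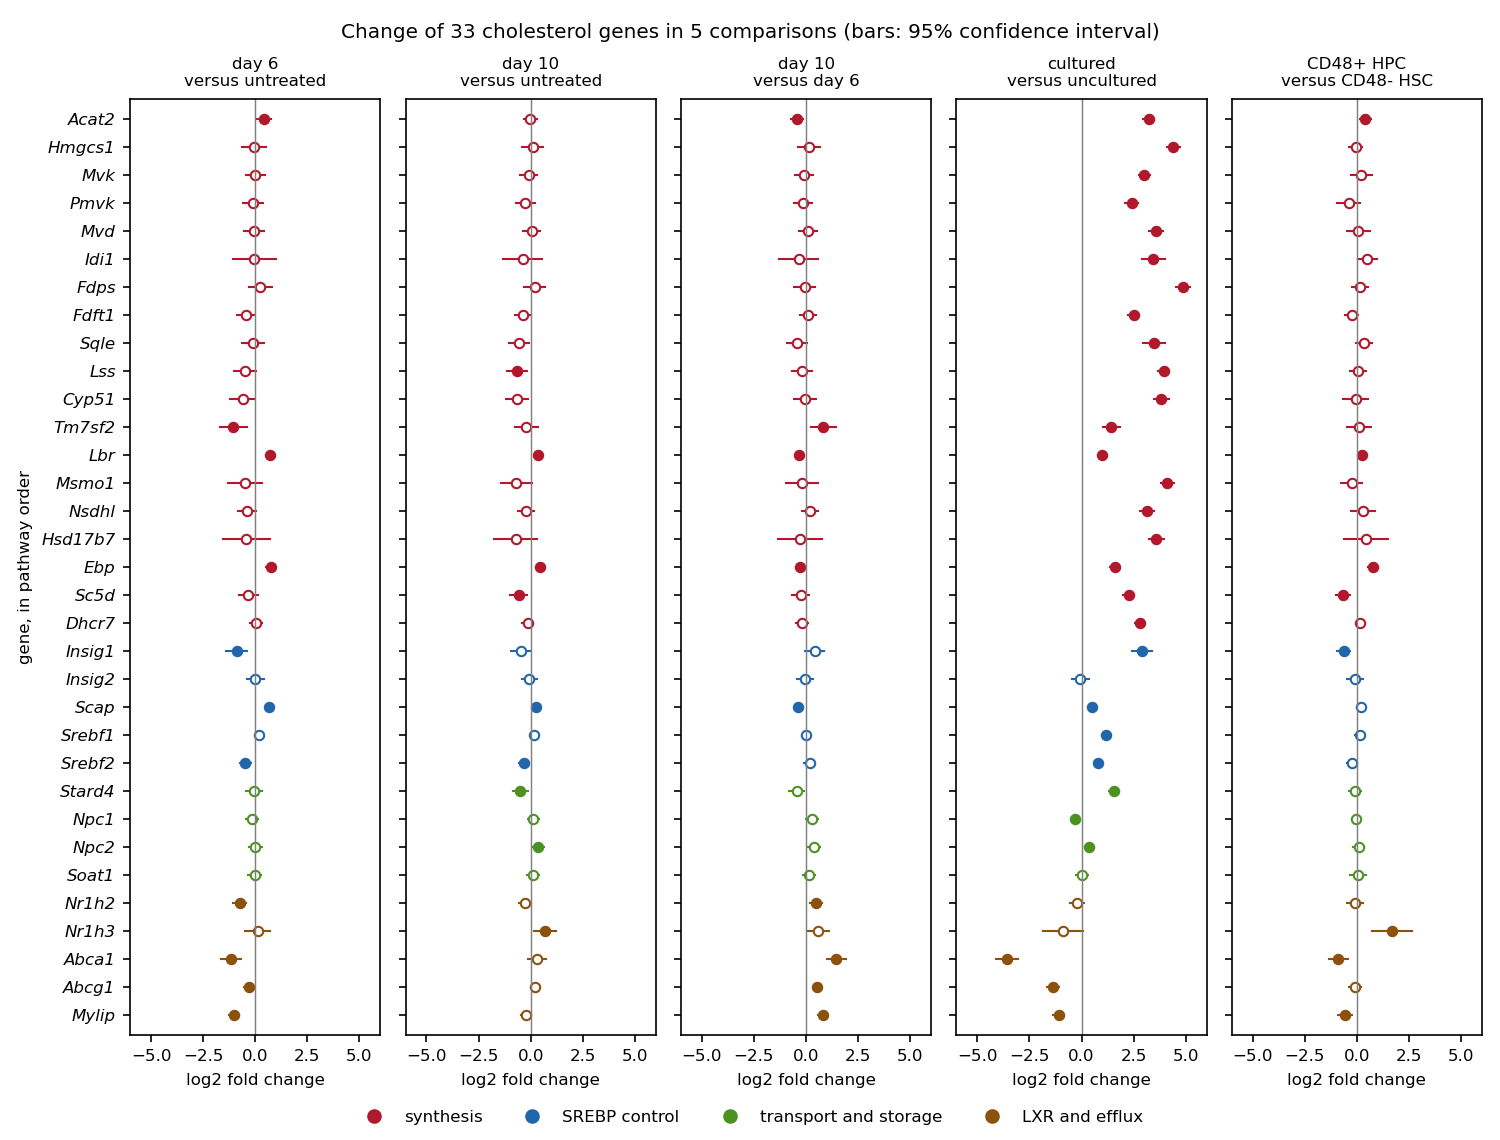
Log2 fold change (horizontal axis) of each of the 33 genes (rows, in pathway order) in the 5 comparisons (panels), with 95% confidence intervals from edgeR as bars. Filled points passed an adjusted p of 0.05. The synthesis genes (red) all lie right of 0 in culture, up to 4.85 for Fdps, and scatter about 0 in the other panels.

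The synthesis genes spanned a wide range of levels in fresh HSCs. Per kilobase of exon, its most abundant members in untreated HSCs were Lbr (57.7 CPM per kb), which encodes the lamin B receptor, a nuclear envelope protein that is also a sterol reductase, and Acat2 (31.6 CPM per kb), the thiolase that makes acetoacetyl-CoA. Next came Dhcr7 (17.5 CPM per kb), the reductase of the last step, Sqle (17.4 CPM per kb), the squalene epoxidase, and Fdps (14.4 CPM per kb), the farnesyl pyrophosphate synthase. Only 16.3% of the exon reads of Acat2 and 54.0% of those of Fdps were unique, so their places in this order are uncertain. At the low end stood Fdft1 (3.06 CPM per kb), the squalene synthase, and Hsd17b7 (1.19 CPM per kb), a sterol ketoreductase.

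After 1 day of culture all 19 synthesis genes were higher, 16 of them by at least 4-fold, and the cultured libraries lay above the uncultured ones without overlap for each of the 19, as they did for 30.9% of all genes. Their median log2 change was 3.23, against -0.01 over all genes tested. The summed CPM of the 19 genes was 4400 to 4760 in the 4 cultured libraries and 495.4 to 736.6 in the 4 uncultured ones. The cultured libraries were also alike, with a coefficient of variation of this sum of 3.57% among cultured and 15.97% among uncultured libraries.

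Hmgcs1, the HMG-CoA synthase that opens the mevalonate route, had 703, 655, 662 and 676 CPM in the 4 cultured libraries, against 30.8, 22.5, 42.4 and 33.05 CPM in the uncultured ones. The lowest cultured library was thus far above the highest uncultured one. The log2 change was 4.41 ± 0.14 (SE, adjusted p = 4.65e-10), a 21.3-fold rise.

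Fdps had 384, 394, 370 and 392 CPM in cultured HSCs, against 11.04, 9.19, 16.8 and 17.2 CPM in uncultured HSCs. It showed the largest rise of the 33 genes, a log2 change of 4.85 ± 0.15 (adjusted p = 4.65e-10), and ranked 12th of the 12386 genes by rise. Only 54.0% of its exon reads were unique, and with unique reads alone its log2 change was 4.84.

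Lss, the lanosterol synthase that closes the sterol rings, had 531, 474, 443 and 453 CPM in cultured and 33.7, 23.9, 35.4 and 33.5 CPM in uncultured HSCs. The libraries of the groups lay far apart, and its log2 change of 3.94 ± 0.12 had the smallest adjusted p of the 33 genes (3.72e-10). Msmo1, the sterol methyl oxidase, had 181, 156, 152 and 166 CPM in cultured and 9.08, 7.12, 9.14 and 13.3 CPM in uncultured HSCs. No library of one group reached the other, and the log2 change was 4.11 ± 0.14 (adjusted p = 6.39e-10).

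The rise ran along the whole route. Before the sterol rings, the log2 change was 3.23 for Acat2, 3.01 for Mvk and 2.40 for Pmvk, the kinases of mevalonate and phosphomevalonate. It was 3.59 for Mvd, the mevalonate pyrophosphate decarboxylase, 3.44 for Idi1, the isopentenyl pyrophosphate isomerase, 2.50 for Fdft1 and 3.49 for Sqle. Among the sterol enzymes, Cyp51, the lanosterol demethylase, rose by 3.84 and Hsd17b7 by 3.60. Nsdhl, the sterol dehydrogenase, rose by 3.15, Dhcr7 by 2.79 and Sc5d, the sterol desaturase, by 2.26. The 3 that rose least were Ebp, the sterol isomerase (1.59), Tm7sf2, a sterol reductase (1.43), and Lbr (0.97), which catalyses the same step as Tm7sf2. The level of Lbr was already 238 ± 30.7 CPM in uncultured HSCs, and reached 459.9 ± 16.8 CPM in cultured HSCs (SD, n = 4 each). Fewer than 20% of exon reads were unique for Acat2 (16.3%) and Idi1 (13.6%), and with unique reads their log2 changes were 3.41 and 2.80.

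**Figure D2:**
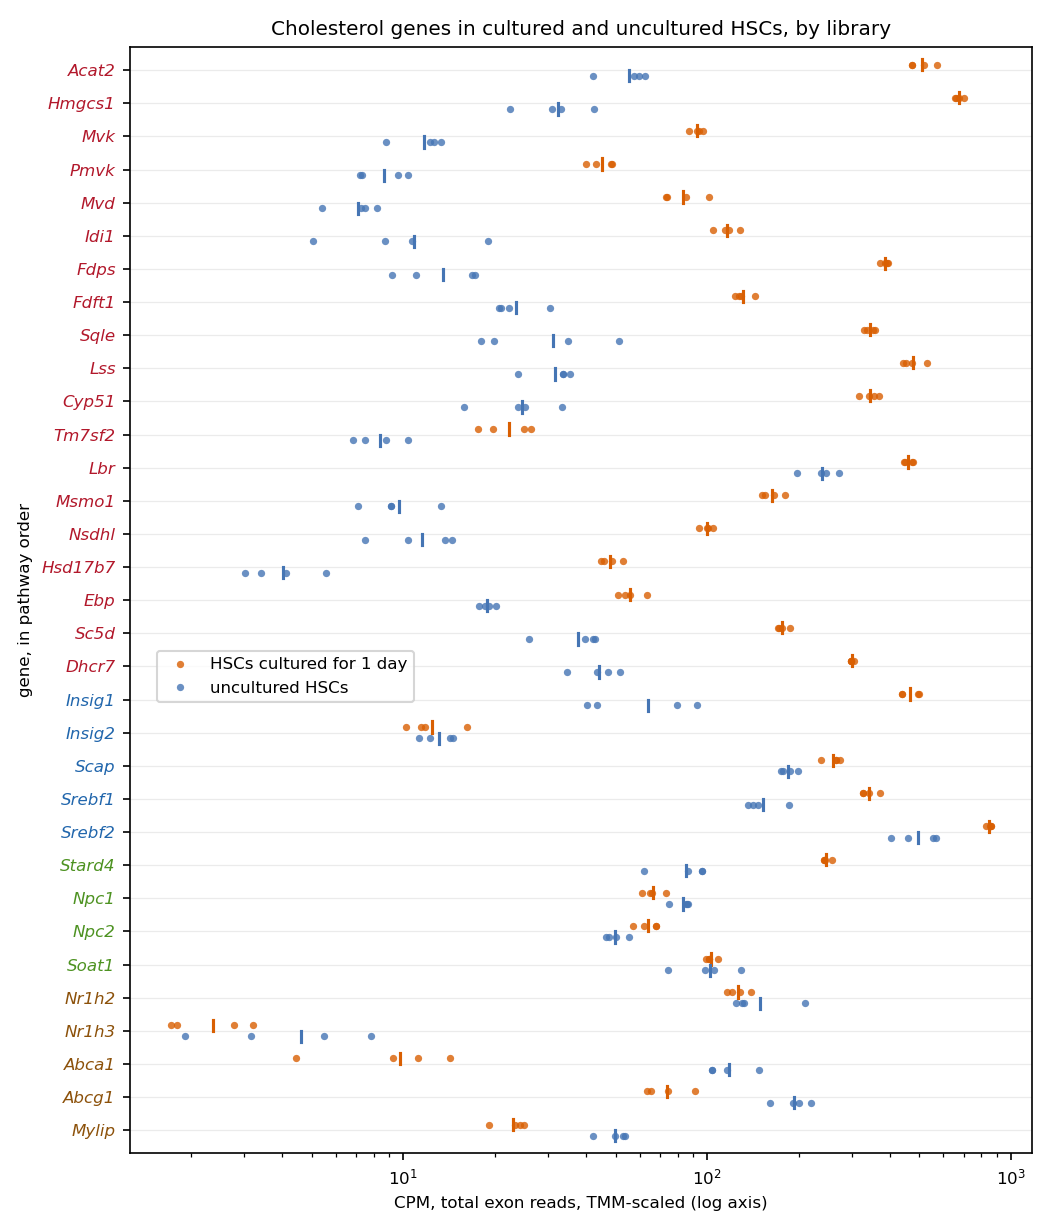
CPM (horizontal log axis) of the 33 genes in the 4 cultured (orange) and 4 uncultured (blue) HSC libraries, 1 point per library, with the group mean as a bar. Gene names are coloured red for synthesis, blue for SREBP control, green for transport and storage and brown for LXR and efflux. Hmgcs1 lies at 655 to 703 CPM in cultured and 22.5 to 42.4 CPM in uncultured HSCs, while Abca1 is shifted the other way.

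To show what the promoters of genes that moved together hold, the 250 bases before the start of 4 of them are printed, from the RefSeq promoter table on GRCm38.p6. They are Hmgcs1, Cyp51 and Lss, which rose, and Abca1, which fell. The starts used are RefSeq's. For Lss and Abca1 they lie inside the gene as counted, so part of each of these windows does too. Capitals mark the CCAAT box (CCAAT, either strand), which the factor NF-Y binds, and the core of the sterol regulatory element bound by SREBP (TCACNCCAC, either strand) with up to 1 mismatch.
Hmgcs1 (chr13:119690101-119690350, plus strand): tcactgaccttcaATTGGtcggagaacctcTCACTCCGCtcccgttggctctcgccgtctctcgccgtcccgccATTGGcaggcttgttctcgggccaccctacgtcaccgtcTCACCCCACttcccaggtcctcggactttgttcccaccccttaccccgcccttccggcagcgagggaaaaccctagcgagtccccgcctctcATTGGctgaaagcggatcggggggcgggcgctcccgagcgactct
Cyp51 (chr5:4104698-4104947, minus strand): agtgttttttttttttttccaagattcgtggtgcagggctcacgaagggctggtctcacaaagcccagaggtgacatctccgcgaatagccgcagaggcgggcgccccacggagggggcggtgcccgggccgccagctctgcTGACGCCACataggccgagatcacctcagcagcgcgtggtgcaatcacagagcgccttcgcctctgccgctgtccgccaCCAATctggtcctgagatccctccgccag
Lss (chr10:76531355-76531604, plus strand): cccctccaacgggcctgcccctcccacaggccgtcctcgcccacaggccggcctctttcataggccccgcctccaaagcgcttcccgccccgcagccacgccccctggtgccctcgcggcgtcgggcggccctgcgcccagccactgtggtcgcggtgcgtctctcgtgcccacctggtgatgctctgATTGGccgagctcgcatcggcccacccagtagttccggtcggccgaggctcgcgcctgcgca
Abca1 (chr4:53159896-53160145, minus strand): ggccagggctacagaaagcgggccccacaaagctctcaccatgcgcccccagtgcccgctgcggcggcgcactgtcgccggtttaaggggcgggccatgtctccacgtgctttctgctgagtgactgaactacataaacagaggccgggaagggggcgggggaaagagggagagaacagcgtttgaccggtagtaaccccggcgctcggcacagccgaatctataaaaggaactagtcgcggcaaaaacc

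The Hmgcs1 window holds an exact sterol element core starting 137 bases before the start, a copy with 1 mismatch starting 220 bases before it, and 3 CCAAT boxes. The Cyp51 window holds a core with 1 mismatch 108 bases before the start and a CCAAT box 29 bases before it. The Lss window holds a CCAAT box and no core within 1 mismatch, and the Abca1 window holds neither. A promoter window was given for 27 of the 33 genes. The exact core was found in 1 of these 27 genes (Hmgcs1) and in 1.22% of all 27025 genes with a window, and the core with up to 1 mismatch in 12 of the 27 (44.4%) and in 23% of all genes. The CCAAT box was found in 22 of the 27 genes (81.5%), among them 15 of the 16 synthesis genes with a window, and in 37.5% of all genes. Such matches describe the letters in these windows and show no binding. Elements bound by other factors, LXR among them, were not searched for, so an unmarked window may still hold them.

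Reads in introns, which come mostly from unspliced RNA, moved the same way. Of the 29 genes called in culture, all 29 changed in the same direction in introns and 27 were also called there. Intron reads of Hmgcs1 were at 132.9 ± 23.2 CPM in cultured and 4.58 ± 1.37 CPM in uncultured HSCs (SD, n = 4 each), a log2 change of 4.92 (adjusted p = 2.14e-07). Intron reads of Fdps were at 72.1 ± 9.34 CPM in cultured and 2.34 ± 0.61 CPM in uncultured HSCs, a log2 change of 5.02. Mvd differed most from its exon value, with 17 ± 4.76 CPM in cultured and 7.92 ± 1.07 CPM in uncultured HSCs, a log2 change of 1.19 in introns against 3.59 in exons.

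**Figure D3:**
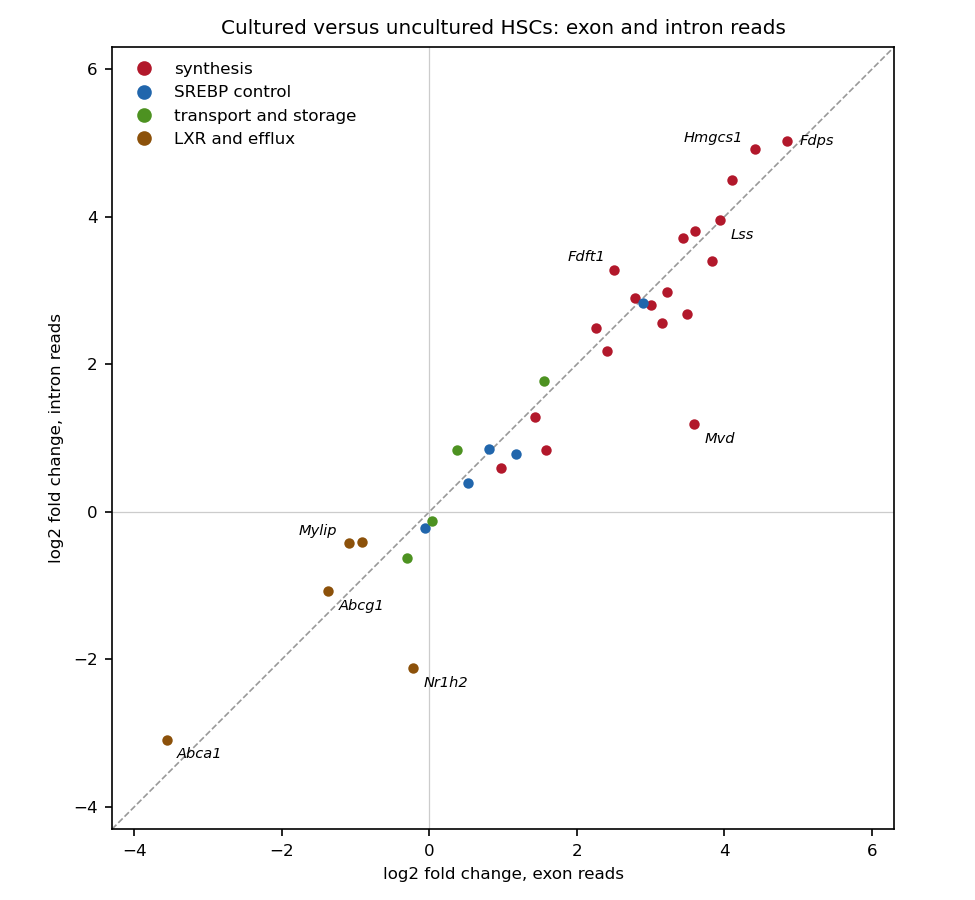
Log2 fold change of the 33 genes in cultured over uncultured HSCs from exon reads (horizontal axis) and from intron reads (vertical axis), coloured by role. The dashed line marks equal change. Fdps lies at 4.85 in exons and 5.02 in introns, Mvd and Nr1h2 lie below the line, and Fdft1 lies above it.

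After 5-FU the synthesis genes showed no such common change. At day 6, 3 of the 19 rose and 1 fell, where 51.4% of all genes were called. Their median log2 change was -0.11 against -0.04 over all genes. At day 10, 2 rose and 2 fell, where 38.0% of all genes were called, with a median of -0.23 against 0.00. The day-6 and day-10 comparisons share the untreated libraries. The genes that rose were Lbr, Ebp and, at day 6, Acat2, and of these Lbr and Ebp were among the 3 synthesis genes that rose least in culture.

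Lbr had 234, 238, 199 and 199 CPM in untreated HSCs, 337, 365, 348 and 346 CPM at day 6, and between 263 and 296 CPM, with a median of 279.9 CPM, in the 6 libraries of day 10. The 3 groups did not overlap, with day 6 on top. Its log2 change was 0.69 ± 0.07 at day 6 (adjusted p = 2.25e-06) and 0.36 ± 0.07 at day 10 (adjusted p = 0.000561), each against untreated HSCs, and -0.32 ± 0.06 for day 10 against day 6 (adjusted p = 0.00184).

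Ebp had 21.3, 23.1, 21.7 and 18.8 CPM in untreated HSCs, 34.2, 33.2, 37.8 and 36.0 CPM at day 6, and 26.1 to 31.9 CPM, with a median of 28.7 CPM, at day 10. Again the groups lay apart, in the same order. The log2 change was 0.74 ± 0.10 at day 6 (adjusted p = 2.33e-05) and 0.45 ± 0.09 at day 10 (adjusted p = 0.00152), and -0.29 ± 0.09 for day 10 against day 6 (adjusted p = 0.0239), the last of which was lost without day-6 replicate 3 or 4 or day-10 replicate 2. In introns the day-6 change of Ebp was 0.11 (adjusted p = 0.87).

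Acat2 had 78.5, 96.7, 94.2 and 80.0 CPM at day 6, against 49.6, 70.9, 65.6 and 76.6 CPM in untreated HSCs. The groups did not overlap, by a small margin, with a log2 change of 0.41 ± 0.16 (adjusted p = 0.0403). Leaving out untreated replicate 1 or 3 or day-6 replicate 2 or 3 ended the call, and the intron value was -0.35. At day 10 Acat2 was at 50.8 to 82.0 CPM, with a median of 59.7 CPM, a log2 change of -0.44 ± 0.14 from day 6 (adjusted p = 0.0308). Some day-10 libraries reached the day-6 range, and the call was lost without day-6 replicate 2 or 3 or day-10 replicate 2.

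Tm7sf2, which catalyses the same step as Lbr, went the other way at day 6, with a log2 change of -1.05 ± 0.30 (adjusted p = 0.00839) and levels of 3.59 ± 0.63 CPM at day 6 and 7.43 ± 2.60 CPM in untreated HSCs (SD, n = 4 each). Its intron change was -0.60 (adjusted p = 0.18). At day 10 it was at 6.40 ± 1.59 CPM (n = 6), a log2 change from day 6 of 0.83 (adjusted p = 0.0328) that was lost without any single day-6 library or without day-10 replicate 3, 4 or 5.

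At day 10, Sc5d had 19.1 to 31.5 CPM, with a median of 23.04 CPM, against 23.9, 47.8, 37.3 and 36.3 CPM in untreated HSCs (log2 change -0.58 ± 0.19, adjusted p = 0.0262). Lss had 16.1 to 32.1 CPM at day 10, with a median of 28.1 CPM, against 25.9, 63.2, 32.9 and 39.7 CPM in untreated HSCs (log2 change -0.67 ± 0.23, adjusted p = 0.0298). The groups overlapped for both genes. Both calls were lost without untreated replicate 2 or 4 or day-10 replicate 1, that of Sc5d also without untreated replicate 3 or day-10 replicate 4, and that of Lss also without day-10 replicate 5 and with unique reads (log2 change -0.48, adjusted p = 0.17).

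The synthesis genes varied among the untreated libraries. The summed CPM of the 19 synthesis genes was 565.8 to 828.6 in the 4 untreated libraries, 763.2 to 837.3 in the 4 of day 6 and 589.2 to 782.8 in the 6 of day 10. Untreated replicate 1 was the lowest of its group for 12 of the 19 genes and replicate 2 the highest for 10 of them. The highest untreated library was a median of 2.00 times the lowest over the 19 genes. This ratio was 1.80 at day 10 (n = 6), 1.53 in uncultured HSCs, 1.44 in HPCs and 1.41 in CD48- HSCs. It was 1.37 at day 6 and 1.16 among cultured libraries. Sqle, for one, had 42.3 to 46.5 CPM at day 6 and 21.7, 62.4, 40.1 and 66.7 CPM in the untreated libraries.

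Of the 19 synthesis genes, 3 were higher and 1 lower in CD48+ HPCs than in CD48- HSCs, a share near that of all genes (26.5% called, 14% higher and 12.5% lower). Ebp had 37.2, 37.3, 35.5 and 38.5 CPM in HPCs, against 23.4, 23.7, 18.3 and 22.2 CPM in CD48- HSCs. These groups lay well apart, with a log2 change of 0.77 ± 0.12 (adjusted p = 0.00108), though in introns it was 0.38 (adjusted p = 0.32). Lbr had 346, 385, 342 and 368 CPM in HPCs and 304, 279, 319 and 309 CPM in CD48- HSCs (log2 change 0.26 ± 0.08, adjusted p = 0.0339).

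Acat2 had 70.6, 71.4, 61.3 and 68.2 CPM in HPCs and 52.8, 58.4, 54.1 and 41.3 CPM in CD48- HSCs (log2 change 0.40 ± 0.12, adjusted p = 0.0281). The HPC libraries were higher throughout for Lbr and Acat2, by a small margin, and both calls were lost without CD48- HSC replicate 1 or HPC replicate 1, 2 or 4 and, for Lbr, without CD48- HSC replicate 2. With unique reads the Acat2 change was 0.15 (adjusted p = 0.63). Sc5d was lower, with 23.8, 19.1, 19.6 and 24.2 CPM in HPCs and 27.96, 36.2, 31.5 and 43.4 CPM in CD48- HSCs. The groups did not overlap, and the log2 change was -0.67 ± 0.16 (adjusted p = 0.00967), against -0.22 in introns (adjusted p = 0.79).

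**Figure D4:**
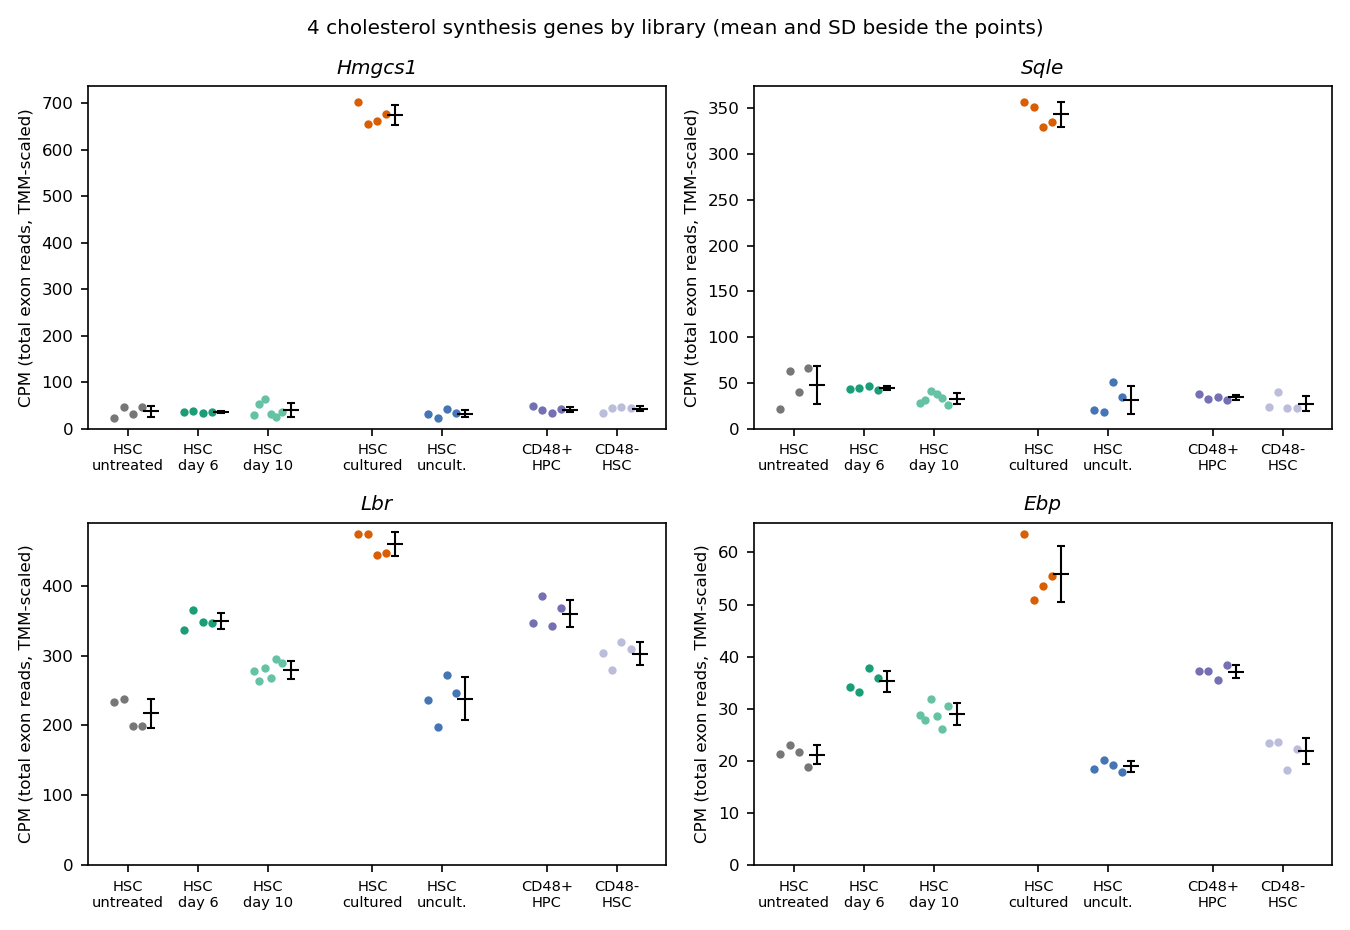
CPM (vertical axis) of Hmgcs1, Sqle, Lbr and Ebp in every library of the 7 groups, with the group mean and SD as a bar beside the points. Cultured HSCs stand above all other groups for each gene, at 655 to 703 CPM for Hmgcs1, and Lbr and Ebp are also higher at day 6 and day 10 than in untreated HSCs.

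The 5 genes of SREBP control differed widely in level. Per kilobase, Srebf2, which encodes the SREBP that mainly drives cholesterol synthesis, was the highest of all 33 in untreated HSCs (81.3 CPM per kb), while Scap, the escort protein, was at 34.8 and Srebf1, whose products mainly drive fatty acid synthesis, at 27.1 CPM per kb. Of the retention proteins, Insig1 was at 25.6 and Insig2 at 3.53 CPM per kb. Unique reads were, however, 10.2% of the exon reads of Insig1 and 100% of those of Insig2. Over all 30 libraries they numbered 2470 and 2690, so the order of these levels is uncertain.

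In culture 4 of the 5 control genes rose, where 33.8% of all genes were called higher. Insig1 was at 438, 439, 493 and 497 CPM in cultured HSCs, against 43.3, 40.2, 92.6 and 79.4 CPM in uncultured HSCs, and its log2 change of 2.89 (adjusted p = 1.87e-07) was in the range of the synthesis enzymes. Unique reads were 10.2% of its exon reads, and with these alone the change was 3.40. Srebf1 was at 341 ± 20.3 CPM in cultured and 153.1 ± 22.7 CPM in uncultured HSCs (log2 change 1.18, adjusted p = 2.78e-07), and Srebf2 at 849.4 ± 15.2 and 495.5 ± 76.9 CPM (0.80, adjusted p = 5.71e-06; SD, n = 4 each). Scap rose by 0.52 (adjusted p = 2.68e-05). Insig2 was at 12.4 ± 2.61 CPM in cultured and 13.1 ± 1.60 CPM in uncultured HSCs, a log2 change of -0.06 with a 95% interval of -0.48 to 0.36.

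After 5-FU, Scap rose and Srebf2 fell. Scap had 167, 156, 161 and 166 CPM in untreated HSCs, 252, 245, 262 and 256 CPM at day 6, and 177 to 219 CPM, with a median of 190.1 CPM, at day 10. No group overlapped another. In log2 units the change was 0.65 ± 0.07 at day 6 (adjusted p = 3.30e-06), 0.26 ± 0.06 at day 10 (adjusted p = 0.00542) and -0.39 ± 0.06 for day 10 against day 6 (adjusted p = 0.000498).

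Srebf2 had 405, 483, 413 and 503 CPM in untreated HSCs, 333, 317, 324 and 317 CPM at day 6, and 268 to 455 CPM, with a median of 365.5 CPM, at day 10. All day-6 libraries lay below the untreated ones, while those of day 10 overlapped them. The log2 change was -0.48 ± 0.13 at day 6 (adjusted p = 0.0047) and -0.32 ± 0.11 at day 10 (adjusted p = 0.0384), the second of which was not kept without untreated replicate 2 or 4 or day-10 replicate 1, 4 or 6.

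Insig1 was called lower at day 6 (36.6 ± 6.09 CPM, against 67.9 ± 11.96 CPM in untreated HSCs; log2 change -0.89, adjusted p = 0.00554) and in HPCs. In HPCs it had 41.6, 37.5, 41.3 and 47.8 CPM, against 72.3, 68.9, 75.3 and 46.5 CPM in CD48- HSCs, so that 1 CD48- HSC library lay within the HPC range (log2 change -0.64 ± 0.15, adjusted p = 0.0100). With unique reads neither call held: the log2 change was -0.32 at day 6 (adjusted p = 0.47) and -0.28 in HPCs (adjusted p = 0.47). Intron reads, in contrast, gave -0.83 at day 6 (adjusted p = 0.0223).

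Of the 4 transport and storage genes, 2 were higher and 1 lower in culture, where 67.6% of all genes were called. Stard4, which carries cholesterol between membranes, had the largest of these changes, with 243, 243, 258 and 244 CPM in cultured and 96.3, 61.8, 86.8 and 96.1 CPM in uncultured HSCs (log2 change 1.56, adjusted p = 1.46e-07). Npc2, which takes up cholesterol in the lysosome, was at 63.7 ± 5.11 CPM in cultured and 49.9 ± 3.94 CPM in uncultured HSCs (log2 change 0.38, adjusted p = 0.00299). Npc1, the lysosomal membrane protein that receives it, had 73.1, 61.3, 65.7 and 64.8 CPM in cultured HSCs and 85.1, 85.7, 86.3 and 75.2 CPM in uncultured HSCs. Its groups did not overlap, by a small margin, and its log2 change of -0.30 ± 0.08 (adjusted p = 0.00689) was lost without uncultured replicates 1 and 3 together (-0.25, adjusted p = 0.056). Soat1, which esterifies cholesterol for storage, was at 102.7 ± 4.22 CPM in cultured and 102.0 ± 22.5 CPM in uncultured HSCs (log2 change 0.04, 95% interval -0.24 to 0.32).

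After 5-FU, 0 of these 4 genes were called at day 6 by edgeR, where 51.4% of all genes were. None passed at an unadjusted p under 0.05 (0 genes) or by DESeq2 (0 genes). At day 10, Stard4 had 51.2 to 95.6 CPM, with a median of 74.1 CPM, against 83.2, 130, 100 and 107 CPM in untreated HSCs (log2 change -0.50 ± 0.17, adjusted p = 0.0291). The groups overlapped, and leaving out untreated replicate 2 or 4 or day-10 replicate 1, 4 or 6 ended the call. Npc2 was at 71.8 ± 11.2 CPM (n = 6) at day 10 and 55.8 ± 2.73 CPM (n = 4) in untreated HSCs (log2 change 0.36, adjusted p = 0.0468), a call that was lost without any single untreated library or without day-10 replicate 1, 4 or 6. Between HPCs and CD48- HSCs, 0 of the 4 were called by edgeR, where 26.5% of all genes were. There were 0 at an unadjusted p under 0.05 and 0 by DESeq2, with log2 changes from -0.09 to 0.09.

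Abca1, Abcg1 and Mylip, the 3 LXR targets placed in the LXR and efflux group, went against the synthesis genes in culture. Of the 5 genes of this group, 3 fell and 0 rose, where 33.8% of all genes were called lower and 33.8% higher. None rose at an unadjusted p under 0.05 in edgeR (0 genes) or by DESeq2 (0 genes), and the median log2 change was -1.09. In a further list of LXR partners, targets and oxysterol enzymes, 3 genes, Scd1 among them, rose in culture and 7 fell. Abca1, the exporter that loads cholesterol onto lipid-poor apolipoproteins, had 11.2, 14.3, 9.23 and 4.42 CPM in cultured HSCs, against 148, 104, 116 and 104 CPM in uncultured HSCs. The groups lay far apart. Its log2 change of -3.56 ± 0.24 (adjusted p = 6.32e-08), an 11.8-fold fall, ranked 109th of 12386 genes by fall. Intron reads of Abca1 were at 6.85 ± 2.78 CPM in cultured and 61.8 ± 7.58 CPM in uncultured HSCs, a log2 change of -3.09 (adjusted p = 5.76e-06).

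Abcg1, which exports cholesterol to high-density lipoprotein, had 74.1, 91.5, 65.4 and 63.4 CPM in cultured HSCs and 220, 162, 192 and 201 CPM in uncultured HSCs. The libraries did not overlap, and the log2 change was -1.37 ± 0.12 (adjusted p = 7.55e-07). Mylip, a ubiquitin ligase that LXR switches on and that marks lipoprotein receptors for breakdown, had 19.2, 24.2, 23.3 and 25.01 CPM in cultured and 42.2, 52.8, 53.8 and 49.6 CPM in uncultured HSCs. These too lay apart, with a log2 change of -1.09 ± 0.12 (adjusted p = 4.72e-06), and -0.42 in introns (adjusted p = 0.068).

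The receptors themselves were not called. Nr1h2, which encodes LXR beta, was at 126.3 ± 10.3 CPM in cultured and 149.0 ± 40.5 CPM in uncultured HSCs (log2 change -0.22, 95% interval -0.54 to 0.11). Nr1h3, which encodes LXR alpha, was low, at 2.37 ± 0.73 CPM in cultured and 4.59 ± 2.62 CPM in uncultured HSCs (log2 change -0.91, 95% interval -1.86 to 0.05), and was called lower without uncultured replicate 4 (-1.16, adjusted p = 0.0236). Nr1h2 was called lower without uncultured replicates 1 and 3 together (-0.40, adjusted p = 0.0388), and in introns it was at 5.07 ± 0.74 CPM in cultured and 22.8 ± 12.3 CPM in uncultured HSCs (log2 change -2.12, adjusted p = 0.000646). In untreated HSCs, Nr1h2 was at 51.0 and Nr1h3 at 2.49 CPM per kb. Macrophages and monocytes are rich in Abca1 and LXR alpha. The summed CPM of 18 of their markers was 194.3 to 216.8 in cultured and 330.7 to 351.6 in uncultured HSCs. Adgre1, C1qa, C1qb, Vcam1 and Cd5l were at 0 in all 4 cultured libraries. The means of Cd68 (24.8 against 10.1 CPM), Hmox1 (29.9 against 23.9 CPM) and Fcgr1 (0.53 against 0.24 CPM) were higher in cultured HSCs, and those of the other markers lower. The part of these markers in the changes above was not tested.

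At day 6 after 5-FU, Abca1, Abcg1 and Mylip were again lower. At day 10, 0 of the 5 genes were called lower than in untreated HSCs by edgeR, where 18.1% of all genes were. There were 0 lower at an unadjusted p under 0.05 and 0 by DESeq2. Mylip was, however, called lower at day 10 without untreated replicate 3 (log2 change -0.34, adjusted p = 0.00972) and without the libraries with transcripts of other cells (-0.33, adjusted p = 0.0238), and Nr1h2 without untreated replicate 2 (-0.37, adjusted p = 0.0336). Mylip had 72.9, 59.6, 48.3 and 75.6 CPM in untreated HSCs, 31.9, 30.5, 29.9 and 33.5 CPM at day 6, and 51.4 to 57.6 CPM, with a median of 55.2 CPM, at day 10. Day 6 lay below both other groups, with no overlap. Its log2 change was -1.03 ± 0.12 at day 6 (adjusted p = 5.54e-06) and 0.81 ± 0.11 for day 10 against day 6 (adjusted p = 0.000153).

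Abca1 had 138, 188, 190 and 205 CPM in untreated HSCs, 123, 58.6, 70.4 and 68.8 CPM at day 6, and 170 to 309 CPM, with a median of 214.3 CPM, at day 10. The groups of day 6 did not overlap the others, and the highest day-6 value was that of replicate 1, whose macrophage marker sum was 3190 CPM, against 341 to 617 CPM in the other day-6 and 352 to 538 CPM in the untreated libraries. The log2 change was -1.17 ± 0.22 at day 6 (adjusted p = 0.000454) and 1.46 ± 0.21 for day 10 against day 6 (adjusted p = 0.000218). Without day-6 replicate 1 the day-6 change was -1.45. The day-6 intron change was -0.49 (adjusted p = 0.21).

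Abcg1 had 203, 231, 214 and 227 CPM in untreated HSCs, 205, 157, 170 and 170 CPM at day 6, and 224 to 321 CPM, with a median of 245.4 CPM, at day 10. Its day-6 log2 change of -0.31 (adjusted p = 0.0202), in which replicate 1 again was the highest and overlapped the untreated range, was lost without untreated or day-6 replicate 2, and was 0.10 in introns. For day 10 against day 6, where the groups did not overlap, it was 0.53 ± 0.10 (adjusted p = 0.00106).

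Nr1h2 had 142, 82.2, 107 and 101 CPM in untreated HSCs, 61.7, 63.6, 55.9 and 77.7 CPM at day 6, and 80.0 to 103 CPM, with a median of 87.95 CPM, at day 10. The day-6 libraries were the lowest throughout, by a small margin. The log2 change was -0.74 ± 0.15 at day 6 (adjusted p = 0.000611) and 0.48 ± 0.14 for day 10 against day 6 (adjusted p = 0.0142), the second of which was lost without day-6 replicate 3. Nr1h3 had 5.61 to 14.3 CPM at day 10, with a median of 8.12 CPM, against 4.81, 4.26, 6.69 and 5.74 CPM in untreated HSCs. The groups overlapped, and the log2 change of 0.70 ± 0.25 (adjusted p = 0.0404) was not kept without untreated replicate 1, 2 or 4 or day-10 replicate 1, 3 or 4.

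**Figure D5:**
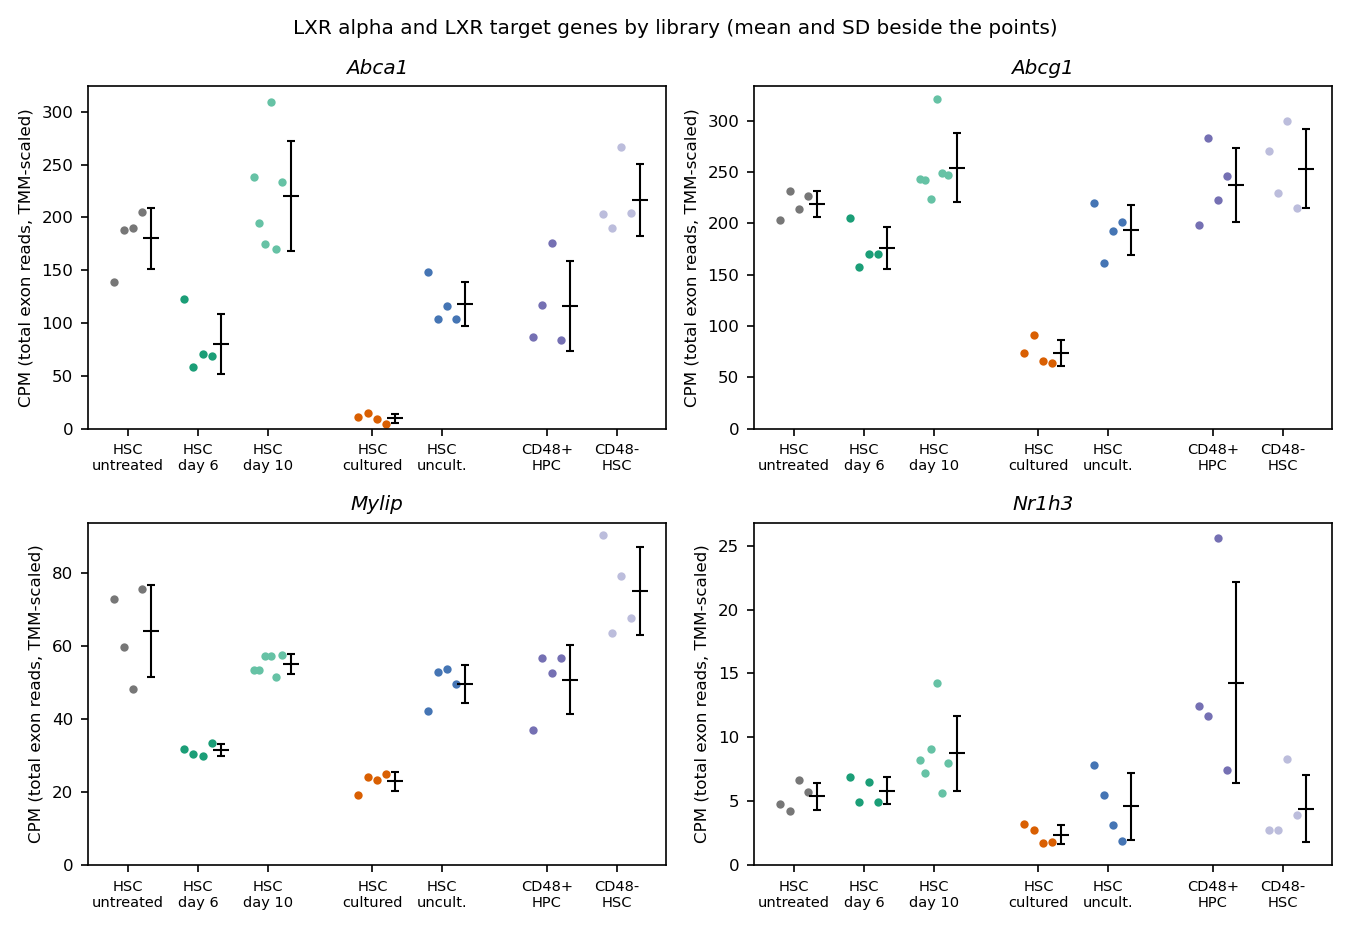
CPM (vertical axis) of Abca1, Abcg1, Mylip and Nr1h3 in every library of the 7 groups, with the group mean and SD as a bar beside the points. Abca1 is at 4.42 to 14.3 CPM in cultured HSCs, and Mylip at 29.9 to 33.5 CPM at day 6, below the untreated and day-10 libraries. Nr1h3 is highest in CD48+ HPCs.

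In CD48+ HPCs, LXR alpha was higher and Abca1 and Mylip were lower than in CD48- HSCs. Nr1h3 had 12.4, 11.7, 25.6 and 7.43 CPM in HPCs, against 2.71, 2.76, 8.31 and 3.88 CPM in CD48- HSCs. The highest CD48- HSC library, replicate 3, lay within the HPC range, and the log2 change was 1.70 ± 0.44 (adjusted p = 0.0157), from 1.26 to 2.22 with each library left out in turn. Without CD48- HSC replicate 3 it was 2.22, and without HPC replicate 3, the highest, 1.26 (adjusted p = 0.0448). Both of these libraries also had the highest macrophage marker sums of their groups. The sum was 1264, 916, 2727 and 540 CPM in the 4 HPC libraries and 436, 443, 1000 and 419 CPM in the CD48- HSC libraries, with all 18 markers above 0 in every HPC library, and its part in the Nr1h3 value was not tested.

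Abca1 had 87.1, 117, 176 and 84.2 CPM in HPCs and 203, 190, 266 and 204 CPM in CD48- HSCs. The groups did not overlap, although HPC replicate 3 came close, and the log2 change was -0.89 ± 0.21 (adjusted p = 0.0105). Mylip had 37.0, 56.8, 52.6 and 56.7 CPM in HPCs and 90.2, 63.5, 79.2 and 67.7 CPM in CD48- HSCs. All HPC libraries were lower, and the log2 change was -0.56 ± 0.15 (adjusted p = 0.0213), a call that was lost without CD48- HSC replicate 1 or 3 or HPC replicate 1. Abcg1 and Nr1h2 were not called, with log2 changes of -0.09 and -0.08.

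The culture change and the day-6 change were set against each other in 1 fit over all 30 libraries, since both compare HSCs with untreated HSCs of their own experiment. The difference was called for 24 of the 33 genes, against 15.1% of 13468 genes (6.36% with the higher change in culture and 8.77% with the lower). In 22 of them the culture change was the higher, among them 18 of the 19 synthesis genes, with a difference of 4.58 log2 units for Fdps and for Msmo1, and 3.76 for Insig1. In Abca1 (-2.42, adjusted p = 4.14e-05) and Abcg1 (-1.08, adjusted p = 0.000122) the culture change was the lower. For Mylip, which fell in both, the difference was -0.09 (95% interval -0.48 to 0.31). For Lbr the difference was 0.26 (95% interval 0.04 to 0.48, adjusted p = 0.098).

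Other genes of the pathway, in 5 further lists, give the setting. Of all genes, 33.8% were called higher and 33.8% lower in culture, and 25.7% and 25.7% at day 6. The shares were 19.9% and 18.1% at day 10, 14.7% and 15.9% for day 10 against day 6, and 14% and 12.5% in HPCs. The counts of every list are to be read beside these shares. Of 7 tested genes that supply acetoacetyl-CoA and HMG-CoA, 5 were higher and 1 lower in culture, with Acly, the citrate lyase that makes cytosolic acetyl-CoA (901 ± 10.1 CPM in cultured and 220 ± 22.2 CPM in uncultured HSCs), Aacs, the acetoacetyl-CoA synthetase (394 ± 32.3 and 48.4 ± 9.35 CPM), and Oxct1, the transferase that activates ketone bodies (197 ± 4.34 and 48.6 ± 11.6 CPM), called with log2 changes of 2.06, 3.05 and 2.05. In this list 3 were higher and 1 lower at day 6, 1 higher and 1 lower at day 10, 3 lower at day 10 against day 6, and 1 higher and 1 lower in HPCs.

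Of 14 tested LXR partners, targets and oxysterol enzymes, 3 were higher and 7 lower in culture, where 67.6% of all genes were called. Apoe, the apolipoprotein that takes up exported cholesterol, fell with the exporters (20.6 ± 2.14 CPM in cultured and 163.7 ± 10.9 CPM in uncultured HSCs, log2 change -2.96), and so did Nceh1, a cholesterol ester hydrolase (69.4 ± 5.24 and 237 ± 25.8 CPM, -1.74). Scd1, a fatty acid desaturase that both LXR and SREBP1 can switch on, rose most of these, with 570.9 ± 24.9 CPM in cultured and 6.75 ± 2.74 CPM in uncultured HSCs (log2 change 6.42). In this list 1 was higher and 8 lower at day 6, 1 higher and 4 lower at day 10, 7 higher and 1 lower at day 10 against day 6, and 1 higher and 2 lower in HPCs. Nceh1 was at 111 ± 7.66 CPM at day 6 and 250 ± 32 CPM in untreated HSCs (log2 change -1.17, adjusted p = 2.21e-06), and its log2 change for day 10 against day 6 was 1.03.

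Of 22 tested genes of sterol uptake, ester breakdown and transfer, 5 were higher and 10 lower in culture, a share near the 67.6% of all genes called. The lipoprotein receptors Lrp8 (230 ± 23.1 CPM in cultured and 46.8 ± 8.12 CPM in uncultured HSCs, log2 change 2.32) and Scarb1 (184 ± 10.2 and 52.2 ± 7.32 CPM, 1.85) rose, and Gramd1b, which moves cholesterol from the plasma membrane to the endoplasmic reticulum, fell (51.7 ± 5.96 and 156 ± 4.36 CPM, -1.57). In this list 6 were higher and 7 lower at day 6, 6 higher and 3 lower at day 10, 5 higher and 2 lower at day 10 against day 6, and 2 higher and 1 lower in HPCs. Scarb1 was also higher at day 6 (log2 change 0.87) and at day 10 (0.66), and Vldlr, another lipoprotein receptor, was higher at day 10 (2.06) and in HPCs (1.26).

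Of 14 tested genes of the isoprenoid branches, which use farnesyl pyrophosphate for other products, 7 were higher and 2 lower in culture. In this list 8 were higher and 1 lower at day 6, 3 higher at day 10, 3 lower at day 10 against day 6, and 3 higher in HPCs. Of all genes, 67.6% were called in culture and 51.4% at day 6. Pdss1, which makes the side chain of ubiquinone, rose by 1.61 in culture, 0.96 at day 6 and 0.91 in HPCs. Of 11 tested genes of SREBP processing and reductase turnover, 4 were higher and 1 lower in culture, 2 higher at day 6, 3 higher at day 10, 1 higher at day 10 against day 6, and 0 in HPCs. In the 9 directions of these lists that have no call by edgeR, 0 to 1 genes had an unadjusted p under 0.05 and 0 were called by DESeq2. Erlin1, an endoplasmic reticulum protein, was higher in culture (0.91), at day 6 (0.79) and at day 10 (0.56).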

How the data were processed

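Each library's deposited file gives, per the file headers, raw read counts for each gene entry: unique exon reads, total exon reads and total intron reads, with the exon length. Reads were mapped to mm10, per the submitters' processing notes. Libraries were made with Nextera XT and sequenced on a NextSeq, per the labels' protocols. Which aligner and counting tool were used is not given in the sources used here. Total exon reads were analysed. The 48737 entries of each file were summed to 46113 gene IDs, of which 1931 had more than 1 entry. No pair of libraries of the same group was a duplicate (chi-square per degree of freedom 2.455 to 45.72). Pairs from different groups were not compared.

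Counts were fitted with edgeR 4.0.16 (R 4.3.3) by the quasi-likelihood test with TMM scaling and edgeR's default filter on low counts, 1 fit per experiment (14, 8 and 8 libraries), and p-values were adjusted by Benjamini-Hochberg over all genes tested. The difference between the culture and day-6 effects came from 1 fit of all 30 libraries. Alternatives were DESeq2 1.42.0, RLE size factors, no filter, unique reads, intron reads, a replicate block, other sets of libraries in the fit and each library left out. The fitting steps were tested on simulated data. Python 3.11.15 with pandas 2.3.3 and NumPy 2.4.6 made the tables, and matplotlib 3.10.9 drew the plots.

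The members and the further lists were chosen with earlier results of these data known, and the 33 genes do not hold every enzyme of the pathway. Up to 4 rising and 4 falling called members per comparison, in order of p, are given with every library, and up to 3 genes of smallest p for each further list. Genes outside this rule, and the libraries shown for them, were chosen after their values were seen. Unique reads were 10.2% of exon reads for Insig1, 13.6% for Idi1, 16.3% for Acat2, 47.1% for Lss, 54.0% for Fdps, 61.5% for Npc1 and 76.4% for Fdft1, so reads that also match elsewhere may be split among copies for these genes. Overlapping genes lie on the opposite strand for Fdft1 (Ctsb, 774 bases), Npc1 (3110002H16Rik, 8982 bases), Srebf1 (Rai1, 114 bases) and Nr1h3 (Acp2, 18 bases) and on the same strand for Tm7sf2 (Vps51, 9 bases), and whether the counting used strand is not given in the sources used here, so reads in the overlap cannot be told apart. Same-numbered libraries of compared groups did not deviate together (correlations -0.1794 to 0.112), so replicate numbers were not used as pairs. Promoter sequences are RefSeq's, on GRCm38.p6.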

Additional observations from a re-analysis of the deposited data

Results flagged for a closer look

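Each gene's libraries were searched, within each group of 4 to 6, for a highest or lowest value set apart from the others by Dixon's criterion. Of 231 such tests 11 met it, near the 5% that chance gives. The library values that stood apart were 34.2 CPM for Hmgcs1 in CD48- HSC replicate 1, 9.02 CPM for Mvk in CD48- HSC replicate 4 and 7.94 CPM for Mvk in HPC replicate 3. The same held for Fdft1 at 30.4 CPM in uncultured replicate 3, Sqle at 39.4 CPM in CD48- HSC replicate 2 and Lss at 23.9 CPM in uncultured replicate 2. Among the other genes they were Stard4 at 257.8 CPM in cultured replicate 3, Npc1 at 75.2 CPM in uncultured replicate 4, Soat1 at 120.5 CPM in day-6 replicate 1, Nr1h2 at 209.6 CPM in uncultured replicate 2 and Abcg1 at 321 CPM in day-10 replicate 4.

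The effect of culture on HSCs differed from that of day 6 after 5-FU for 24 genes (edgeR interaction term, adjusted p under 0.05). Culture minus day 6, in log2 units, was 2.79 for Acat2, 4.44 for Hmgcs1, 2.98 for Mvk, 2.50 for Pmvk, 3.62 for Mvd, 3.47 for Idi1 and 4.58 for Fdps on the way to squalene. It was 2.94 for Fdft1, 3.57 for Sqle, 4.39 for Lss, 4.41 for Cyp51, 2.46 for Tm7sf2 and 4.58 for Msmo1. Among the late sterol enzymes it was 3.52 for Nsdhl, 4.00 for Hsd17b7, 0.83 for Ebp, 2.56 for Sc5d and 2.72 for Dhcr7. The control genes Insig1, Srebf1 and Srebf2 differed by 3.76, 1.00 and 1.26, and the transfer protein gene Stard4 by 1.59. The exporters Abca1 and Abcg1 differed the other way, by -2.42 and -1.08.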

How the results depend on the processing

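All 29 calls in culture kept their direction and stayed past the threshold with RLE size factors, DESeq2, no filter, the replicate block, unique reads, all 30 libraries in 1 fit and each library left out. With intron reads 27 did, Mylip and Npc1 being the exceptions, and 28 did without the libraries with transcripts of other cells, an alternative added after seeing the data, Npc1 being the exception. The 24 differences between the culture and day-6 effects also kept theirs under RLE size factors, DESeq2, the replicate block, unique reads and each library left out. The small changes of the other comparisons were less stable. With intron reads 2 genes were higher at day 6, 2 higher and 1 lower at day 10, 0 lower at day 10 against day 6, and 1 higher and 1 lower in HPCs. Intron reads also reversed Acat2 (-0.35) and Abcg1 (0.10) at day 6, Nr1h3 at day 10 (-0.049), Ebp at day 10 against day 6 (0.17) and Acat2 in HPCs (-0.10). Without the libraries with transcripts of other cells 3 were higher and 1 lower at day 10 (Mylip, since Lss, Sc5d, Srebf2 and Stard4 were lost), and 2 lower at day 10 against day 6. With the 2 groups alone, 2 were lower at day 10. With the replicate block 2 were higher in HPCs, and no other count of genes called moved by over 1.5 times. The cause of these shifts was not tested. With each library left out, 3 to 4 genes were higher and 6 to 11 lower at day 6, 3 to 6 higher and 0 to 7 lower at day 10, and 3 to 6 higher and 2 to 5 lower at day 10 against day 6. The counts were 25 to 25 higher and 4 to 5 lower in culture, 2 to 5 higher and 3 to 4 lower in HPCs, and 24 to 25 for the difference of effects. Genes at a few CPM, such as Nr1h3, Hsd17b7 and Tm7sf2, rest on few reads per library, and 100 cells per library limit the precision of every value.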

Other observations

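Within other groups, too, single libraries were at the end of the range for many synthesis genes. HPC replicate 3 was the lowest of its group for 13 of the 19 genes. Uncultured replicate 2 was the lowest for 12 of them and replicate 3 the highest for 12, and day-10 replicate 3 was the highest for 11.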
